A study of Mus musculus with 4 samples.

Results

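The enzymes and transporters through which cells take up arginine, split it, oxidise it to nitric oxide or turn it into polyamines were followed in epididymal white fat of mice over 6 days of stimulation of the β3-adrenergic receptor. They are 9 genes, chosen by symbol with earlier results of these arrays known: the arginases Arg1 and Arg2, the inducible nitric oxide synthase Nos2, the citrulline-recycling enzyme Ass1, the polyamine enzymes Odc1 and Sat1, the ornithine-degrading enzyme Oat, and the arginine carriers Slc7a1 and Slc7a2. All 9 had a probe set that the array's annotation gives to 1 gene, with 11 probe sets in all among 12422 against transcripts, and they stand among 8251 genes so named. The probe sets were 93097_at for Arg1, 98473_at and 161246_at for Arg2, 104420_at for Nos2, 97521_at for Ass1, 160084_at for Odc1, 96657_at for Sat1, 92848_at and 161278_r_at for Oat, 101208_at for Slc7a1 and 92736_at for Slc7a2. RNA came from epididymal fat of male C57BL/6 mice aged 3 to 4 months and was pooled before hybridization. The groups were control mice and mice dosed with CL 316243, a compound selective for that receptor, at 3 nmol/hr for 1 day, for 3 days or for 6 days. Each group had 1 array. How many mice went into a pool, how control mice were handled and how the compound was delivered is not stated in the labels. With 1 array per group the differences have no replicate check, no test was run and no p-value is given. The members were proposed with these values in view, so their levels are a description.

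As background, arginine enters cells through cationic amino acid transporters and is then competed for by arginase and nitric oxide synthase. Arginase releases urea and ornithine. Ornithine is decarboxylated to putrescine, the parent of spermidine and spermine, or is passed by ornithine aminotransferase towards proline and glutamate. Nitric oxide synthase makes nitric oxide and citrulline, which argininosuccinate synthase and lyase return to arginine. In mouse macrophages a high Arg1 level is a familiar mark of alternative activation by IL-4 and IL-13, and a high Nos2 level a mark of classical activation by interferon gamma and microbial products.

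Values are intensities after a small scaling of each array, in array units. Those at or below 173, the 40th percentile of all values, were treated as at the floor, so that a fold against such a value is a lower bound and is written as at least that fold. A gene with several probe sets is given by its brightest. A change was counted when it was at least 2-fold after the floor. Between 59.9% and 60.2% of the probe sets on each array lay above the floor. The error of a log2 change, estimated from 735 genes with 2 probe sets above the floor on all arrays, was 0.32 for day 1, 0.26 for day 3 and 0.25 for day 6 against control. For days 1, 3 and 6, a change of 3 such errors is 1.96-fold, 1.73-fold and 1.68-fold. This error holds no variation between mice or pools. In RNA of whole tissue, fewer cells of a type and less RNA per cell cannot be told apart. Of 9 adipocyte markers measured, 9 were above the floor, and of 7 T and NK cell markers, 1 was.

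At day 1, 4 of the 9 genes were at least 2-fold higher than in control: Arg1, Arg2, Odc1 and Sat1. None was 2-fold lower. Over all 8251 genes, 5.71% were 2-fold higher and 6.35% 2-fold lower in the same comparison; as the members were proposed from it, nothing is read from the difference. At day 3, 2 of 9 were 2-fold higher, Arg1 and Sat1, beside 2.88% of all genes, and 0 were lower, beside 2.47%. At day 6, 0 of 9 were 2-fold higher and 0 lower, beside 1.31% and 1.24% of all genes. The median log2 change over the 9 genes was 0.40 at day 1 and 0.00 at day 3 and at day 6, and the median over all genes was 0.00 on each day. Of the 9, 7 exceeded the floor on some array; Nos2 and Slc7a1 were at the floor on all 4.

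The arginases went up on the first day. Arg1, the cytosolic liver-type arginase that macrophages also make, had an intensity of 128 in control, 14410 at day 1, 2924 at day 3 and 78 at day 6. The control and day 6 arrays were below the floor and the other 2 far above it. Arg1 was at least 83.3-fold higher at day 1 and at least 16.9-fold higher at day 3 than in control. Because control lay below the floor, these folds move with it over the other settings tried. They ran from 26.9-fold to 113-fold at day 1 and from 5.45-fold to 22.8-fold at day 3. The upper ends came with the floor at the 25th percentile, 58.0, which control exceeded. They are thus measured folds and not bounds. The fall from day 1 to day 3, with both arrays above the floor, was 4.93-fold, and by day 6 the level had dropped at least 16.9-fold further.

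Arg2, the mitochondrial arginase, had intensities of 84 in control, 1548 at day 1, 160 at day 3 and 242 at day 6. It stood high on the day 1 array and near the floor on the others, and was at least 8.95-fold higher at day 1 than in control. Its other probe set did not follow, with 84, 68, 105 and 199 on the same arrays, so the rise rests on 1 of 2 probe sets. With the 2 probe sets averaged on the log2 scale the day 1 change was 1.58. With the floor lowered to the 25th percentile Arg2 was also past 2-fold at day 6, with a log2 change of 1.53, and raising the floor to the 60th percentile left that change at 0.00.

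**Figure D1:**
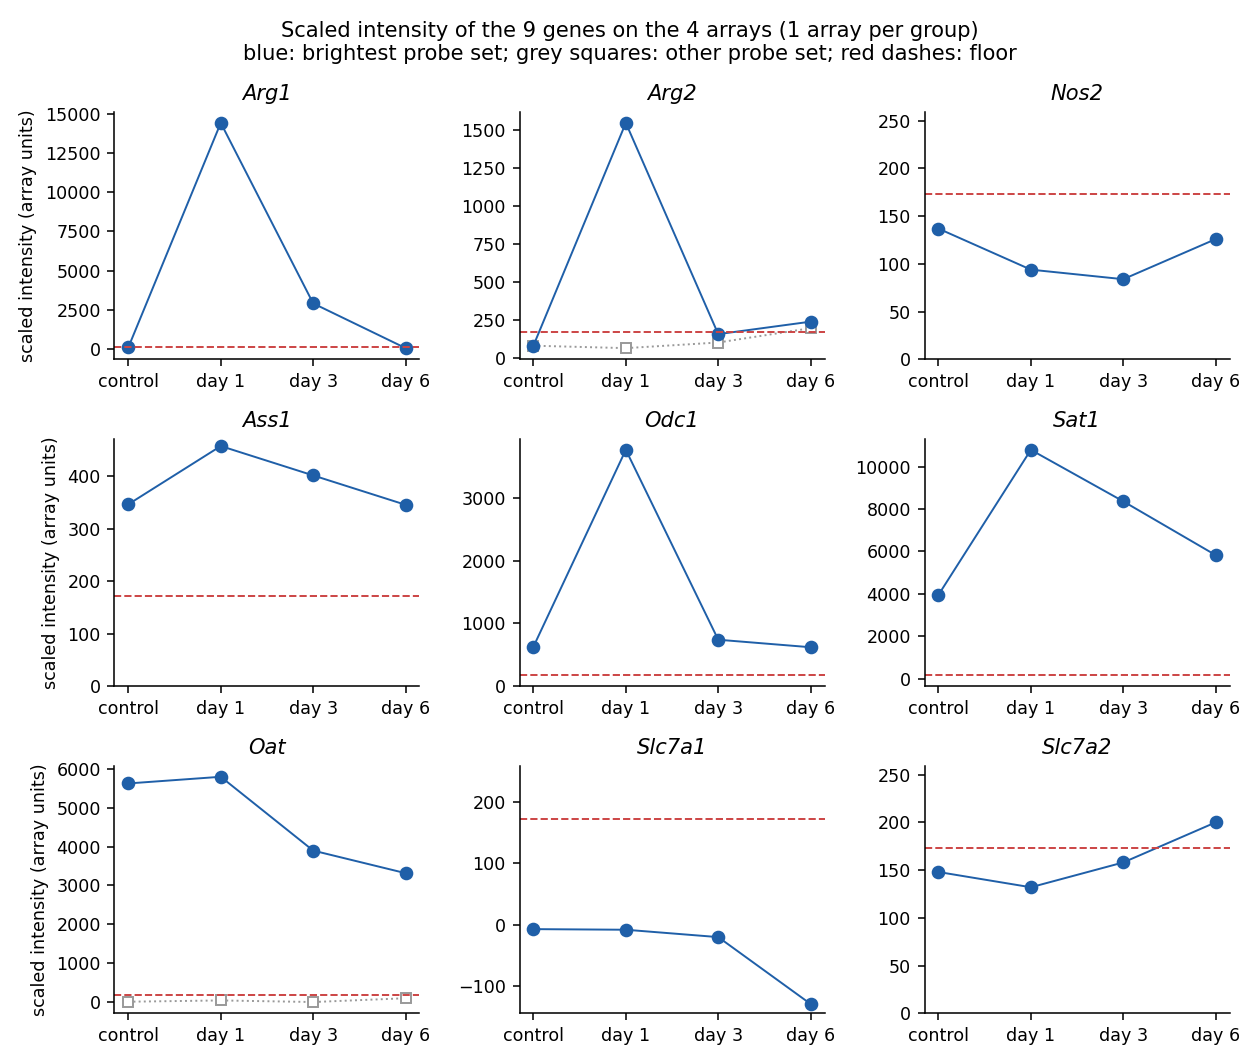
Scaled intensity (array units, linear axis, its own scale in each panel) of each of the 9 genes on the control, day 1, day 3 and day 6 arrays, 1 array per group. Blue points are the brightest probe set, grey squares another probe set, and red dashes the floor at 173. Arg1, Arg2 and Odc1 peak at day 1, Sat1 peaks at day 1 and comes down more slowly, and Nos2 and Slc7a1 lie below the floor throughout.

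The nitric oxide side showed no such signal. Nos2, which makes nitric oxide in bulk in activated macrophages, had intensities of 137 in control, 94 at day 1, 84 at day 3 and 126 at day 6. All 4 lie below the floor, so no fold is given and a change below it was not detectable. Ass1, the enzyme that starts the return of citrulline to arginine, had 347, 458, 402 and 346. Its highest value, at day 1, was 1.32-fold above control, which is within 3 errors.

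The carriers could hardly be measured. Slc7a1, the widely expressed cationic amino acid transporter, gave -7, -8, -20 and -129, at or below 0 on every array. Slc7a2, the form that activated macrophages and liver use, gave 148, 132 and 158 in control, at day 1 and at day 3, all below the floor, and 200 at day 6, just above it. These values set no direction for either carrier.

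Downstream of ornithine, the genes parted. Odc1, ornithine decarboxylase, the rate-limiting enzyme of polyamine synthesis, had intensities of 624 in control, 3766 at day 1, 737 at day 3 and 617 at day 6. The day 1 array stood alone, 6.03-fold above control, while day 3 and day 6 were within 1.18-fold of it. Among 5320 genes above the floor on both arrays, 33 had a rise at day 1 as large as that of Odc1 or larger, Odc1 included. As the members were proposed with these values in view, nothing is read from this rank. Genes with control at the floor, Arg1 and Arg2 among them, had no place in it. Sat1, the acetyltransferase that marks spermidine and spermine for breakdown or export, had 3949, 10786, 8358 and 5824. All 3 treated arrays were above control, by 2.73-fold, 2.12-fold and 1.47-fold in turn, the last within 3 errors. So the synthetic enzyme was back near control by day 3, when the catabolic one was still past 2-fold.

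Oat, ornithine aminotransferase, had 5631 in control, 5803 at day 1, 3897 at day 3 and 3314 at day 6. Control and day 1 were alike within 1.03-fold, and the later arrays were lower, by 1.44-fold at day 3 and 1.70-fold at day 6. Neither reached 2-fold; the day 6 value lies next to the 1.68-fold of 3 errors. Of 5424 genes above the floor on both arrays, 217 had a drop at day 6 as large as that of Oat or larger. Nothing is read from this count, as the members were proposed with these values in view. The other probe set of Oat gave -5, 28, -13 and 85, below the floor on every array, and measured no direction.

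The promoters of Odc1, Sat1 and Oat, the members bearing on the ornithine branch, are shown as a description. Each line gives the 250 bases before the annotated start site, from RefSeq on GRCm38.p6, read 5′ to 3′ on the strand of the gene; 5 of the 9 members had an entry. Capitals mark any match, on either strand, to 6 motifs: TGACGTCA (cAMP response element), CACGTG (E-box) and TTNNGNAA (C/EBP), where N is any base, and the STAT6, NF-kB and TATA box motifs, given by name.
Odc1 (chr12:17544623-17544872, + strand): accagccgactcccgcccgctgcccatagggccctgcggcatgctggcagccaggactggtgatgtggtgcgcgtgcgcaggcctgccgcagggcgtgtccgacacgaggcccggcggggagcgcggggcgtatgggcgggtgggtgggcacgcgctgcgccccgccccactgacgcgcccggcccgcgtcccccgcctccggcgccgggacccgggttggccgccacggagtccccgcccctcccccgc
Sat1 (chrX:155216450-155216699, - strand): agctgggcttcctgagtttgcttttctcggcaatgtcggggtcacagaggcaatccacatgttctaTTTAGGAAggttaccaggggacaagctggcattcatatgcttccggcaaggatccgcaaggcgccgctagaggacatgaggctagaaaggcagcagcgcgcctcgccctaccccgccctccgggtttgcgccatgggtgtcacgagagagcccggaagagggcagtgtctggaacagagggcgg
Oat (chr7:132576399-132576648, - strand): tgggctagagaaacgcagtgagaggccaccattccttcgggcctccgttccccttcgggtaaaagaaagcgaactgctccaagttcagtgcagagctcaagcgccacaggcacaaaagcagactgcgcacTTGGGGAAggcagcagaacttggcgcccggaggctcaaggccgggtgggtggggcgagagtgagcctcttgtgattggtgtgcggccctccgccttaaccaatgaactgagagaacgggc
The Odc1 window held no match to the 6 motifs and was 80.0% G and C, against a median of 52.4% over all 32851 promoter windows. Sat1 (59.6% G and C) and Oat each held 1 match, to the C/EBP letters, TTTAGGAA and TTGGGGAA. Those letters occur in 36.8% of all windows of this length, the cAMP response element in 1.55%, the E-box in 6.02%, STAT6 in 5.85%, NF-kB in 4.11% and the TATA box in 12.4%. Sat1, which rose at day 1, and Oat, which did not, thus held the same kind of match. Odc1, which also rose, held none. A match is a description of letters and not a site of binding.

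Followed from day to day, the genes that had risen came down at different times. Between day 1 and day 3, 3 of 9 dropped at least 2-fold, Arg1 by 4.93-fold, Odc1 by 5.11-fold and Arg2 by at least 8.95-fold, beside 4.79% of all genes; 0 rose, beside 4.41%. Sat1 was 1.29-fold lower over the same interval, within 3 errors of no difference, which is 1.85-fold here. Between day 3 and day 6, 1 of 9 dropped past 2-fold, Arg1, beside 2.01% of all genes, and 0 rose, beside 1.14%. Sat1 was 1.43-fold lower and Oat 1.18-fold lower in that interval, both within 1.65-fold, which is 3 errors. Arg1 was the member that took both steps down.

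**Figure D2:**
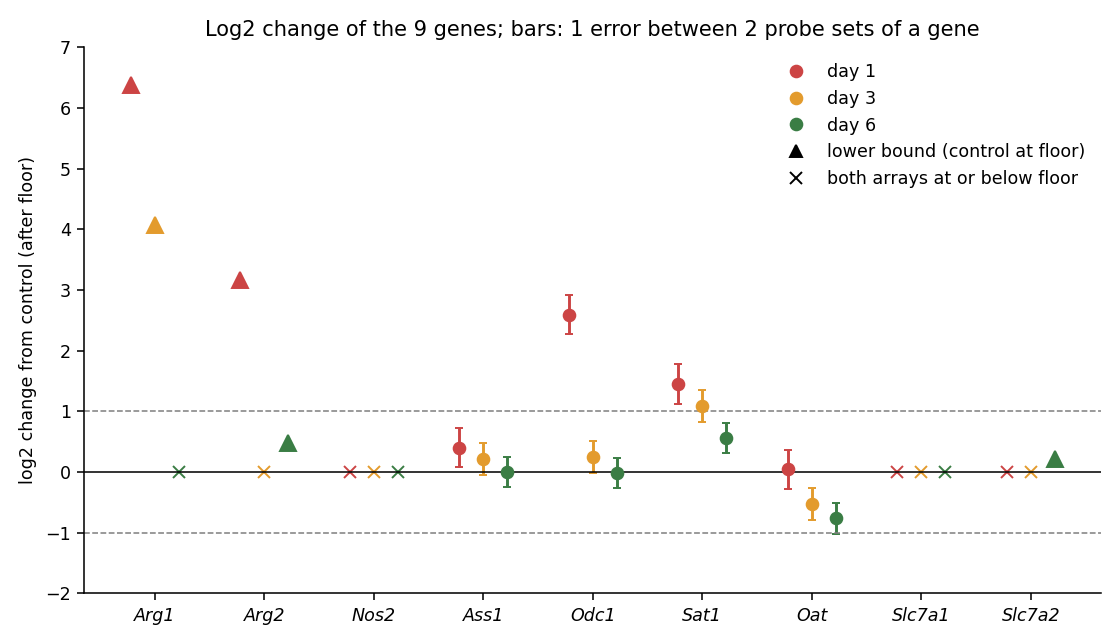
Log2 change from control (after the floor) of the 9 genes at day 1 (red), day 3 (orange) and day 6 (green), 1 array per group. Bars show 1 error between 2 probe sets of a gene, triangles are lower bounds where control was at the floor, crosses have both arrays at or below the floor, and dashes mark 2-fold. Arg1, Arg2, Odc1 and Sat1 lie above the upper dashes at day 1, Arg1 and Sat1 at day 3 and none at day 6.

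The rest of the pathway was read from 6 lists, which were drawn up with earlier results of these arrays known and hold 79 measured genes that are not members. At day 1, 13 of the 79 were at least 2-fold higher and 5 lower. Of the 13, 9 stand on the list of cytokines and transcription factors known to control Arg1, Nos2 or Odc1, and the 53 enzyme and transporter genes had 4 higher and 5 lower. The background shares for that day, 5.71% and 6.35%, apply here too and to each list below. Since the lists were drawn up with earlier results known, nothing is read from the difference. At day 3, 1 of 79 was higher and 0 lower, beside 2.88% and 2.47% of all genes. At day 6, 0 were higher and 1 lower, beside 1.31% and 1.24%. The median log2 change of the 79 was 0.00 on each day, as it was over all genes.

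In the polyamine list, 1 of 10 measured genes rose and 1 fell at day 1. Srm, spermidine synthase, which acts on the putrescine that Odc1 makes, had 885 in control, 2298 at day 1, 967 at day 3 and 888 at day 6. Its one high array was that of Odc1, at 2.60-fold above control. Apip, an enzyme of the methionine salvage pathway that recycles the by-product of polyamine synthesis, went from 2337 to 967, which is 2.42-fold lower, and stood at 1875 and 2602 later. Mat2b, the regulatory subunit of methionine adenosyltransferase, was within 1.35-fold of control on each day, and a second, dimmer probe set was 1.64-fold lower at day 3 and 1.47-fold lower at day 6. Of the regulators of Odc1 protein, the antizyme inhibitor Azin1 was within 1.43-fold of control on each day and the antizyme gene Oaz2 within 1.60-fold; Oaz2 was named after its values were seen.

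Genes of nitric oxide synthesis moved in both directions at day 1, with 1 of 13 higher and 3 lower. Gch1, the rate-limiting enzyme for tetrahydrobiopterin, a cofactor of nitric oxide synthases, had 132, 512, 124 and 157, and was at least 2.96-fold higher at day 1 than in control. Pts, the next enzyme of that cofactor's synthesis, had 1934, 880, 1720 and 2237, and was 2.20-fold lower at day 1. Thus the first step of the cofactor pathway was up and the second down on the same array. The Gch1 value of 512 is below the 60th percentile floor of 537 that was also tried, and its rise is not counted there. Nos3, the endothelial nitric oxide synthase, had 1044, 442, 1056 and 1355, 2.36-fold lower at day 1. Cav1, the caveolin that binds and restrains the Nos3 protein, had 23620, 9985, 18561 and 22544, 2.37-fold lower at day 1, and a second, dimmer probe set read 227 and 92 on those 2 arrays. The chaperone Hsp90aa1 was within 1.61-fold of control on each day. At day 1, 3 of 9 endothelial markers were past 2-fold lower and 0 higher, and their median log2 change was -0.92. For 9 adipocyte markers these were 4, 0 and -0.89. Over all genes, 6.35% were lower and 5.71% higher. The part of either cell type in the Nos3, Cav1 and Pts values was not tested.

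Among arginine and citrulline genes, 0 of 7 were past 2-fold at day 1. Asl, which completes the recycling step that Ass1 begins, had 424, 300, 396 and 524, named here after its values were seen. Gatm, which transfers the amidino group of arginine in the first step of creatine synthesis and releases ornithine, had 694, 411, 1418 and 577, and was 2.04-fold higher at day 3 than in control. In the list of ornithine, proline and glutamate metabolism, 0 of 10 were past 2-fold on any day. Glutamine synthetase (Glul) had 5409, 6063, 8015 and 8492, at most 1.57-fold above control, and its other probe set stayed between 1409 and 1473.

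Of 13 other amino acid transporters, 2 rose and 1 fell at day 1. Slc7a7, which with its partner Slc3a2 exchanges arginine for neutral amino acids and sodium, had 42, 606, 339 and -10. It was above the floor at day 1 and day 3, as Arg1 was, and at least 3.51-fold higher at day 1 than in control. Slc3a2 itself was within 1.41-fold of control throughout. Slc7a11, the cystine-glutamate exchanger, had 2, 366, 37 and -5, at least 2.11-fold higher at day 1. Slc1a5, a carrier of glutamine and other neutral amino acids, had 13958, 3546, 11335 and 14053, which is 3.94-fold lower at day 1. Slc7a5, the leucine carrier that also pairs with Slc3a2, had 917, 947, 609 and 409, and was 2.24-fold lower at day 6.

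**Figure D3:**
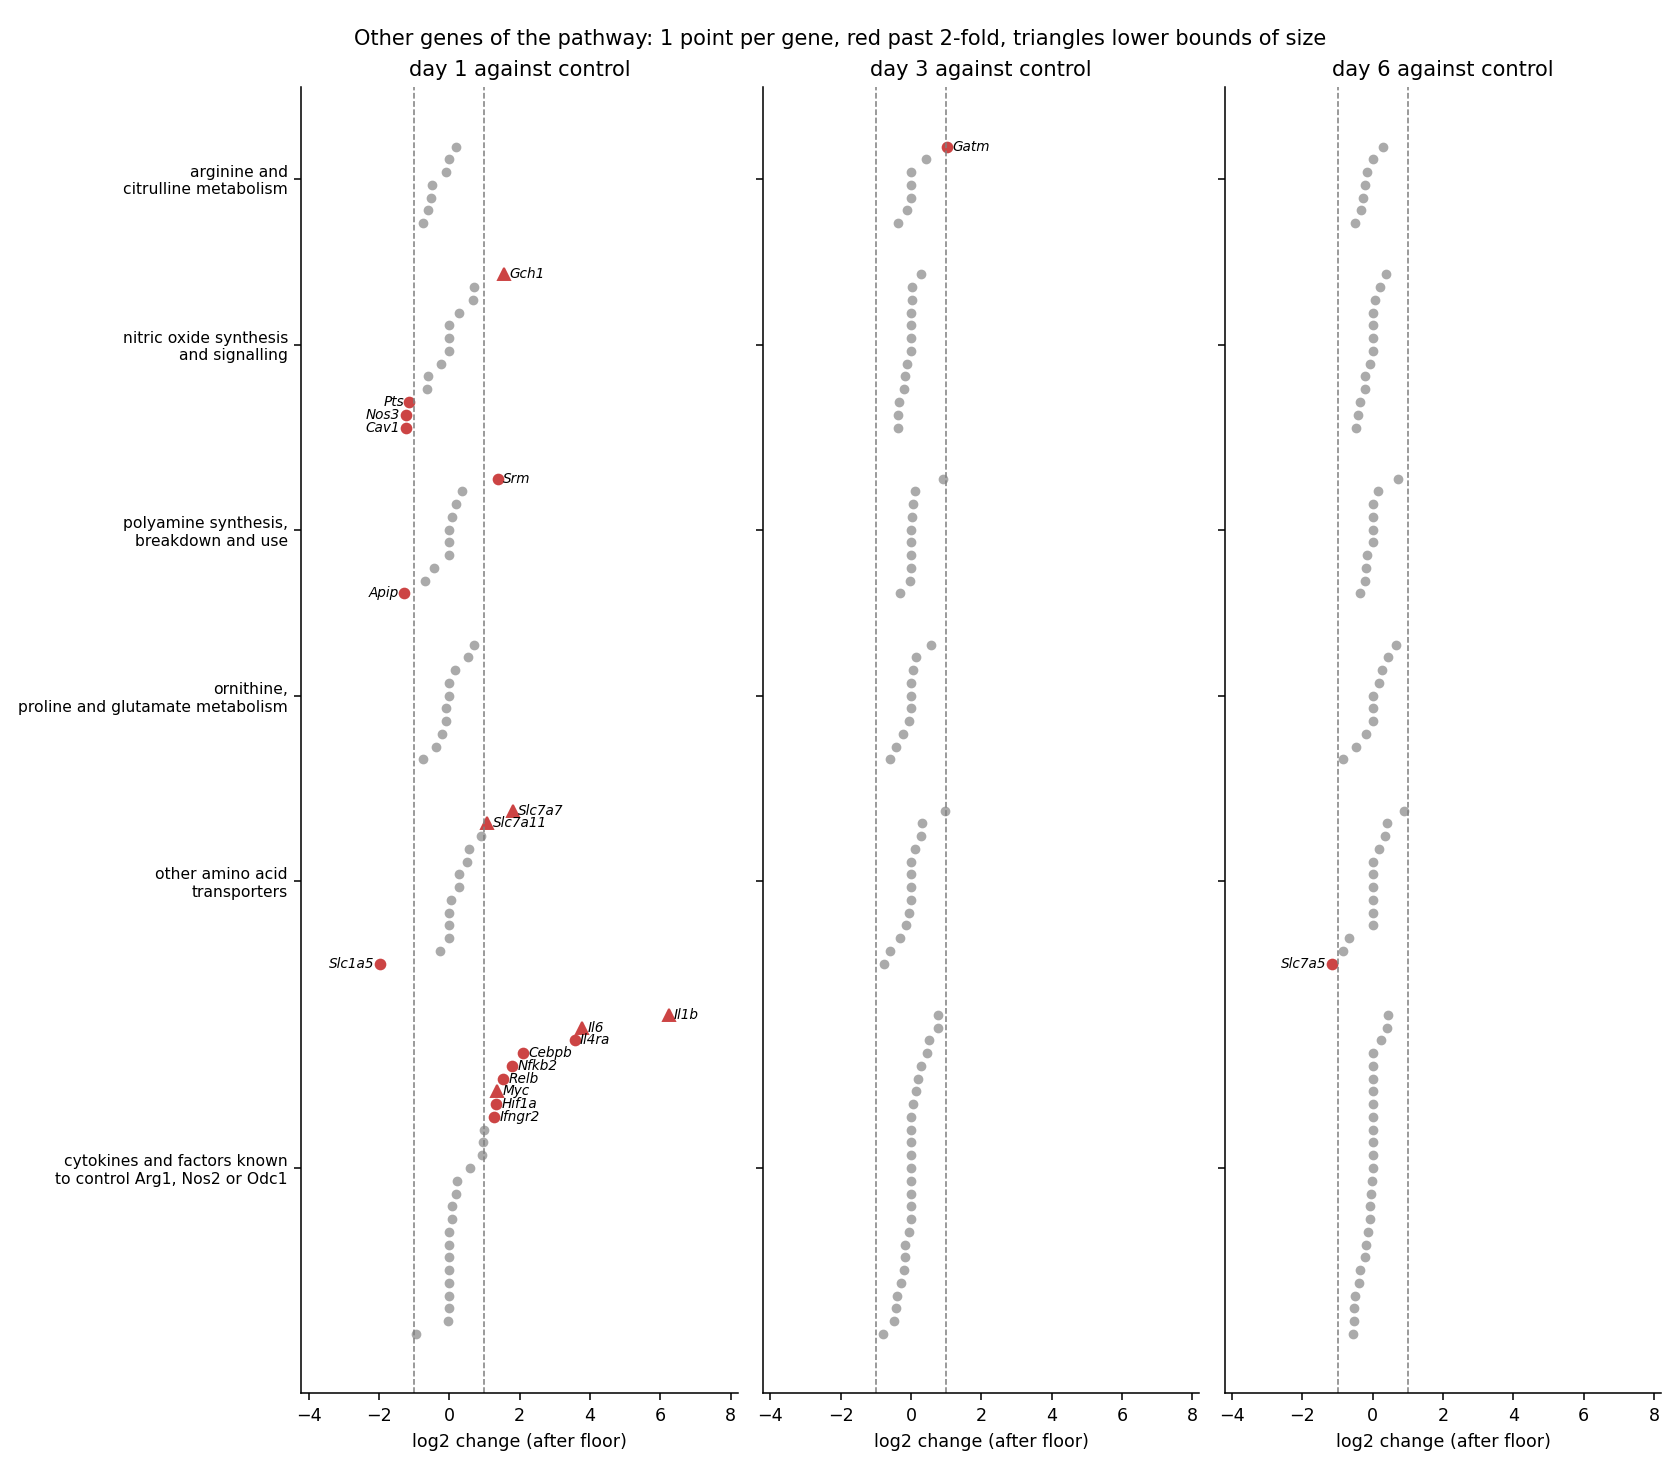
Log2 change from control (after the floor) at day 1, day 3 and day 6 of the other genes of the pathway, 1 point per gene within each of 6 lists. Genes at least 2-fold from control are red and named, and triangles are bounds where the dimmer array was at the floor. At day 1, 13 genes lie to the right of the dashes and 5 to the left; at day 3 Gatm and at day 6 Slc7a5 lie outside them.

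The cytokine and transcription factor list had 9 of 26 genes at least 2-fold higher and 0 lower at day 1, and 0 past 2-fold at day 3 and day 6. Il4ra, the receptor chain through which IL-4 and IL-13 induce Arg1, had 575, 6815, 976 and 389, 11.8-fold higher at day 1; a second probe set read between -8 and 27 on the 4 arrays and did not show it. Cebpb, a transcription factor required for Arg1 induction in macrophages, had 3550, 15215, 4878 and 4824, 4.29-fold higher at day 1. Both were highest on the array with the highest Arg1 value. At day 3 Cebpb was within 1.37-fold of control, while Arg1 was still at least 16.9-fold higher. Their part in the Arg1 values was not tested. Of the 26 genes, 17 were within 2-fold of control at day 1, among them Stat6 (1.05-fold) and Klf4 (1.02-fold). The cytokine genes Il4 and Il13 were below the floor on every array, with highest values of 92 and -1.

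Hif1a, the hypoxia-inducible factor, an inducer of Nos2 in macrophages, had 6923, 17493, 6721 and 5919, 2.53-fold higher at day 1, and a second probe set showed the same, at 6587 and 16518. Cytokine, receptor and NF-kB genes of the same list gave a mixed reading. Il1b was at least 75.8-fold and Il6 at least 13.7-fold higher at day 1. The NF-kB subunit genes Nfkb2 and Relb were 3.46-fold and 2.90-fold higher, the latter with another probe set below the floor on all arrays. Rela, also of NF-kB, was 1.16-fold higher at day 1 and Irf1 1.14-fold higher, both within 3 errors. The interferon gamma receptor chain Ifngr2 was 2.43-fold higher, while interferon gamma itself (Ifng) was below the floor on all 4 arrays, with a highest value of 21. Tnf had 40, 169, 86 and 38, also below the floor on all 4. Its highest value, at day 1, lay just under the floor. No fold is therefore given for Tnf, and a rise below the floor was not detectable. Myc, a direct activator of Odc1, had 156, 446, 296 and 140, and was at least 2.58-fold higher at day 1. Atf4, which raises amino acid transport under stress, went from 4380 to 8306, short of 2-fold.

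For each member past 2-fold, the genes with the most alike pattern were found by the root mean square difference between the 3 log2 changes from control. The search ran over 4057 genes whose brightest array was at least 4 times the floor; the 3 changes share the control array, and the measure is a description over 4 arrays. Nearest to Arg1 were Il1rn (0.61), the natural antagonist of interleukin-1, Chil3 (0.84), a secreted chitinase-like lectin of macrophages, and Clec4d (1.32), a myeloid lectin receptor. Nearest to Arg2 were Asprv1 (0.20), Fosl1 (0.28), an AP-1 factor, and Cxcr2 (0.28), a chemokine receptor of neutrophils. Nearest to Odc1 were Smyd2 (0.07), Fpr2 (0.15), a formyl peptide receptor, and Serpinb2 (0.15), an inhibitor of plasminogen activators. Control was below the floor for these 3 genes, whereas the changes of Odc1 were measured on both sides, and it was below the floor for Arg1, Arg2 and most of their neighbours. Those distances and their order therefore move with the value of the floor.

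Sat1 had a longer time course and other neighbours. Nearest to it were Atf3 (0.05), a stress-induced transcription factor, Tmem37 (0.10) and Cyba (0.16), a subunit of the phagocyte NADPH oxidase. Atf3 had 833, 2198, 1737 and 1290, 2.64-fold, 2.08-fold and 1.55-fold above control. Cyba had 4312, 10956, 10782 and 6091. Both, like Sat1, were highest at day 1, still past 2-fold at day 3 and within 2-fold at day 6.

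**Figure D4:**
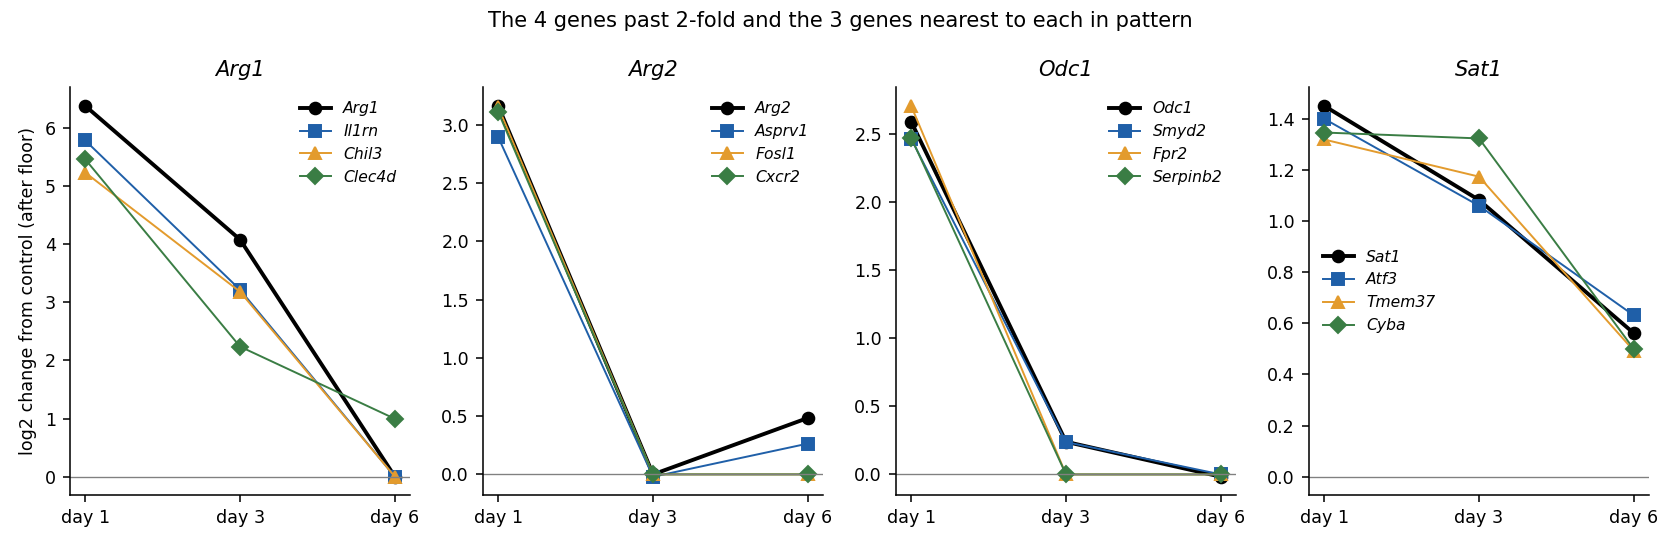
Log2 change from control (after the floor) at day 1, day 3 and day 6 of Arg1, Arg2, Odc1 and Sat1 (black) and of the 3 genes nearest to each in pattern, 1 array per group. Where a control value was at the floor the points are lower bounds. Arg1 lies above its neighbours at day 1 and day 3, Arg2 and Odc1 drop to near 0 at day 3 with theirs, and Sat1 declines stepwise.

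Markers of other cell types moved on the same arrays. Over all genes, 5.71% were 2-fold higher and 6.35% lower at day 1, and 2.88% and 2.47% at day 3. At day 6 the shares were 1.31% and 1.24%. They stand beside the counts of each marker list here and below. Of 11 macrophage markers, 7 were at least 2-fold higher at day 1, 7 at day 3 and 1 at day 6, with a summed intensity of 30877 in control and 82020, 78110 and 36601 on the treated days. None of the 11 was at 0, and each exceeded the floor on some array. From day 1 to day 3 the sum changed little, but its genes did not move as one. Cd14 was 4.61-fold lower at day 3 than at day 1, Itgam 3.07-fold and Msr1 2.66-fold lower, beside 4.93-fold for Arg1, and Adgre1 was 2.46-fold higher. Of 13 neutrophil markers, 6 were higher and 2 lower at day 1, and the sum went from 4235 to 77280, 5155 and 3646. Most of the day 1 sum came from the calcium-binding protein genes S100a8 (40305, against 414 in control) and S100a9 (26727, against 119). The other 4 that were higher at day 1 were the proteases Mmp9 (353 to 4438) and Mmp8 (16 to 676), Cxcr2 (124 to 1494) and the surface marker Ly6g (-8 to 597). The granule protease genes Elane (593 to 292) and Prtn3 (756 to 164) were the 2 that were lower, and Mpo, Ltf and Ngp, also of granule proteins, were below the floor at day 1, at 164, 50 and 91. Of 4 measured markers of alternatively activated macrophages, 1 was past 2-fold at day 1 and at day 3, Chil3, with 121, 6505, 1570 and 49; Mrc1 was at 2048, 3179, 3734 and 1343, and Ccl17 was at or below 6 on every array.

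Adipocyte markers had a summed intensity of 220304 in control and 132345, 198700 and 233986 on the treated days, with 4 of 9 past 2-fold lower at day 1. Of 9 hepatocyte markers, 4 exceeded the floor on some array, 0 were past 2-fold at day 1 or day 3 and 1 was higher at day 6. Their sum was 42403, 22802, 44424 and 51315, nearly all of it Cyp2e1, with 41921, 22152, 43797 and 50100. The urea cycle genes Cps1 and Otc had 246, 140, 245 and 221 and 25, -11, 40 and 45, and albumin (Alb) had 140, 175, 86 and 487. Of 9 measured genes of epididymis and testis, organs next to this fat pad, 2 were past 2-fold lower at day 1 and at day 3 and 1 higher at day 6; Lcn5 had 3321, 63, 7 and 8029 and Adam7 2654, 200, 251 and 1846. Lcn5 and Adam7 were thus low on the 2 arrays on which Arg1 was high, while the testis gene Tnp1 had 1258, 1278, 1234 and 1709. Of 6 mesothelial markers, 2 were past 2-fold lower at day 1 and 3 at day 3 and at day 6. The part of macrophages, neutrophils, adipocytes, hepatocytes, epididymis, testis and mesothelium in the values of the members and list genes was not tested.

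**Figure D5:**
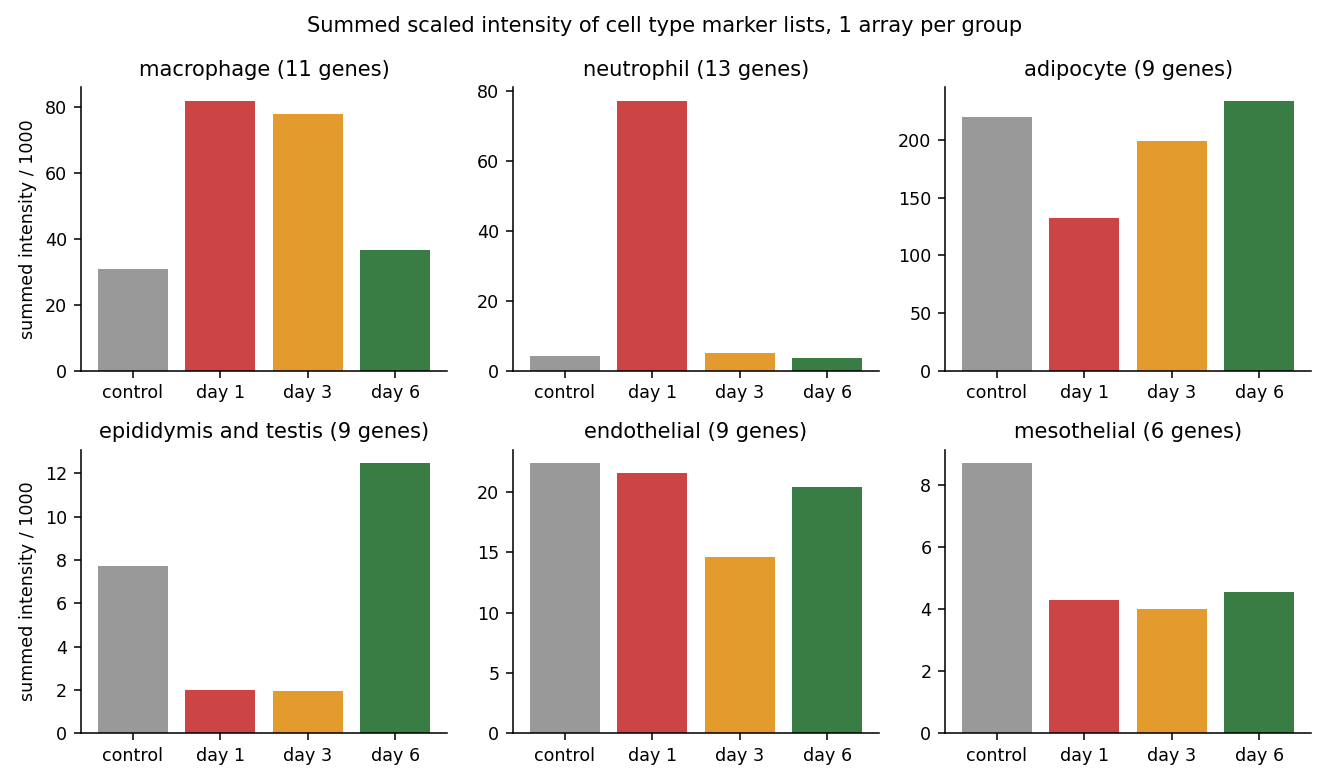
Summed scaled intensity (array units divided by 1000, bars from 0) of 6 lists of cell type markers on the control, day 1, day 3 and day 6 arrays, 1 array per group and no error bars. The macrophage sum is high at day 1 and day 3, the neutrophil sum at day 1, and the epididymis and testis sum is low at day 1 and day 3.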

How the data were processed

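RNA of 4 groups was measured on 1 Affymetrix mouse expression array each. The deposited values are linear intensities, 1 whole number per probe set and array, and 12.2% to 12.4% of them on an array are at or below 0. The labels do not state how the authors computed and normalized these intensities or with what software, and the 4 columns share nearly the same quantiles (medians 314 to 314.5), so changes are relative to a common distribution. A factor per array made the mean between its 2nd and 98th percentiles the same on all 4 (factors 0.999 to 1.001), 66 control probe sets were left out, values were raised to the floor, and log2 was taken (Python 3.11.15, numpy 2.4.6, pandas 2.3.3). Of 12422 probe sets, 10833 had 1 symbol, 396 several and 1193 none listed; the last 2 kinds were not named. Entrez identifiers of 10817 matched RefSeq and 0 symbols changed. Coordinates are printed for promoters alone, and a further promoter motif is not reported here.

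The members and lists were chosen with earlier results of these data known. Genes named were all members; list genes past 2-fold from control with the brighter value at least 2 times the floor; the brightest gene of each list within 2-fold; the 3 nearest in pattern to each member past 2-fold; and marker genes where a result is set beside them. Asl, Oaz2, Stat3, Stat6, Klf4, Cebpd, Irf1, Rela, Il4, Il13, Ifng, Ifngr1 and Tnf were chosen outside this rule after their values were seen. Which markers to name was also chosen in this way. Changes of 2-fold were counted with no test, as each group has 1 array; precision is limited by their number. The counting was tested on simulated data, with rises put only into probe sets whose control value was above 4 times the floor. That test did not cover genes with control nearer the floor, such as Arg1, Arg2 and Odc1. Alternatives were the floor, the scaling, averaged probe sets and an offset in place of the floor.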

Additional observations from a re-analysis of the deposited data

How the results depend on the processing

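Over 6 alternatives, 60 of 60 member changes past 2-fold stayed past it in the same direction, and 240 of 270 member values moved by less than 1 probe set error; 0 reversed. Leaving the intensities as deposited, or quantile normalization, moved 0 of 45 member values each. Neither could have moved much, as the scaling factors were 0.999 to 1.001 and the arrays shared nearly the same quantiles. Averaging probe sets could change only Arg2 and Oat, the members with 2 probe sets. The 60 of 60 therefore holds many values that these settings could not alter. Lowering the floor to the 25th percentile, 1 member was past 2-fold at day 6, against 0, and the pathway lists had 7 genes past 2-fold at day 3 and 7 at day 6, against 1 each. At day 6 they had 0 under a 60th percentile floor or the offset. At day 1 the lists had 8 genes higher and 4 lower under the 60th percentile floor, against 13 and 5. Over all probe sets with that lower floor, the counts past 2-fold were 1998, 1132 and 847 for days 1, 3 and 6 against control, 1698 for day 3 against day 1 and 980 for day 6 against day 3. A 60th percentile floor gave 752, 301, 152, 530 and 145. The reported counts were 1287, 578, 303, 961 and 359, and the offset gave 234 for the last. The higher counts with a lower floor follow from its construction, since fewer values are set equal. No paired analysis was possible because each group has 1 array. Signals below the floor, such as those of Nos2 and Slc7a1, limit what could be measured.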
